A study of Mus musculus with 16 samples.

Results

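The genes described here encode the kinetochore, the spindle assembly checkpoint and the chromosomal passenger complex, and they were chosen by name from an RNA-seq table of mouse oocytes. Every name beginning with Cenp and a letter was taken (19 names), together with 20 named subunits and kinases. Because Mis12 is listed 2 times, these 39 names gave 40 entries of the 28618 in the table. The rule used names and no measured value, but it was set with earlier results of these data known. RNA was sequenced from 16 libraries, 4 biological replicates each of WT and Psma7 cKO germinal vesicle (GV) oocytes and metaphase II (MII) eggs. In cKO females (Psma7 fl/fl;Zp3-Cre) the Zp3 promoter drives CRE recombinase in growing oocytes only, so the floxed gene for a subunit of the 20S proteasome core is lost there and follicle cells still carry it. Females of all groups were 3 to 4 weeks old and received 5 IU PMSG. GV oocytes were taken 44 h later, whereas eggs were collected from oviducts 14 to 16 h after a further injection of hCG and freed of cumulus cells with 0.3% hyaluronidase. The labels give 5 oocytes per library, while the methods of the study give another pool size, so the number of cells behind a library is not certain.

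The kinetochore is built on centromeric chromatin, where the histone variant CENP-A is read by the constitutive centromere-associated network, and this network carries the KMN network (KNL1, MIS12 and NDC80 complexes) that holds microtubules. Checkpoint proteins gather at kinetochores without microtubules and delay anaphase by inhibiting the anaphase-promoting complex, and the passenger complex, with Aurora B or, in germ cells, Aurora C as its kinase, releases wrong attachments. A fully grown oocyte transcribes little, and during maturation stored mRNAs are either degraded, or lengthened at their poly(A) tails and translated.

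Values are FPKM, fragments scaled to the length of a transcript and to the mapped total of its library, so that they are levels per length and shares of a library. Summed FPKM was 392306 to 421173 per library. A fall in FPKM can therefore be a rise of other transcripts, and no amount per cell is given. In a pooled library, fewer cells with a transcript and less transcript per cell cannot be told apart, and since cDNA was primed with oligo-dT, a change in mRNA amount and a change in poly(A) length cannot be told apart either. Psma7 itself was at 165 ± 25.3 FPKM in WT GV oocytes and 126 ± 32.1 in WT eggs, beside 14.6 ± 2.82 and 39.7 ± 20.2 FPKM in cKO (mean ± SD, n = 4). All 10 oocyte markers exceeded 10 FPKM in every library. Of 14 cumulus and granulosa markers 13 were in the table and 10 of them were under 1 FPKM in every library, with Amh, Foxl2, Ptx3 and Tnfaip6 at or near 0. Their summed level ranged from 15.4 to 17.0 FPKM in GV oocytes and from 19.4 to 23.0 in eggs of WT, and from 17.0 to 20.0 and from 21.9 to 23.1 FPKM in those of cKO. Cyp19a1, Kitl and Nr5a2 made up nearly all of it, and its part in the results was not tested.

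To see how this machinery changed during maturation, MII eggs were first compared with GV oocytes of the same genotype. In WT, 16 of the 38 entries tested rose and 16 fell, so partners within single complexes moved in opposite directions. Over all entries tested in WT, 26.1% rose and 52.4% fell at the same threshold, an adjusted p under 0.05 in limma's moderated linear model on log2 FPKM with values below 1 set to 1. In cKO, 17 of 39 entries rose and 15 fell, beside 23% and 51% of all entries. The median log2 change of the members was 0.11 in WT and 0.09 in cKO, while that of all entries was −0.44 and −0.42. Entries under a mean of 1 FPKM were not tested. These were Cenpb, which encodes the protein that binds the CENP-B box of satellite DNA and stayed under 1 FPKM in every library, and in WT Nsl1, a subunit of the MIS12 complex, at 1.29 ± 0.383 FPKM in GV oocytes and 0.339 ± 0.0916 in eggs.

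**Figure D1:**
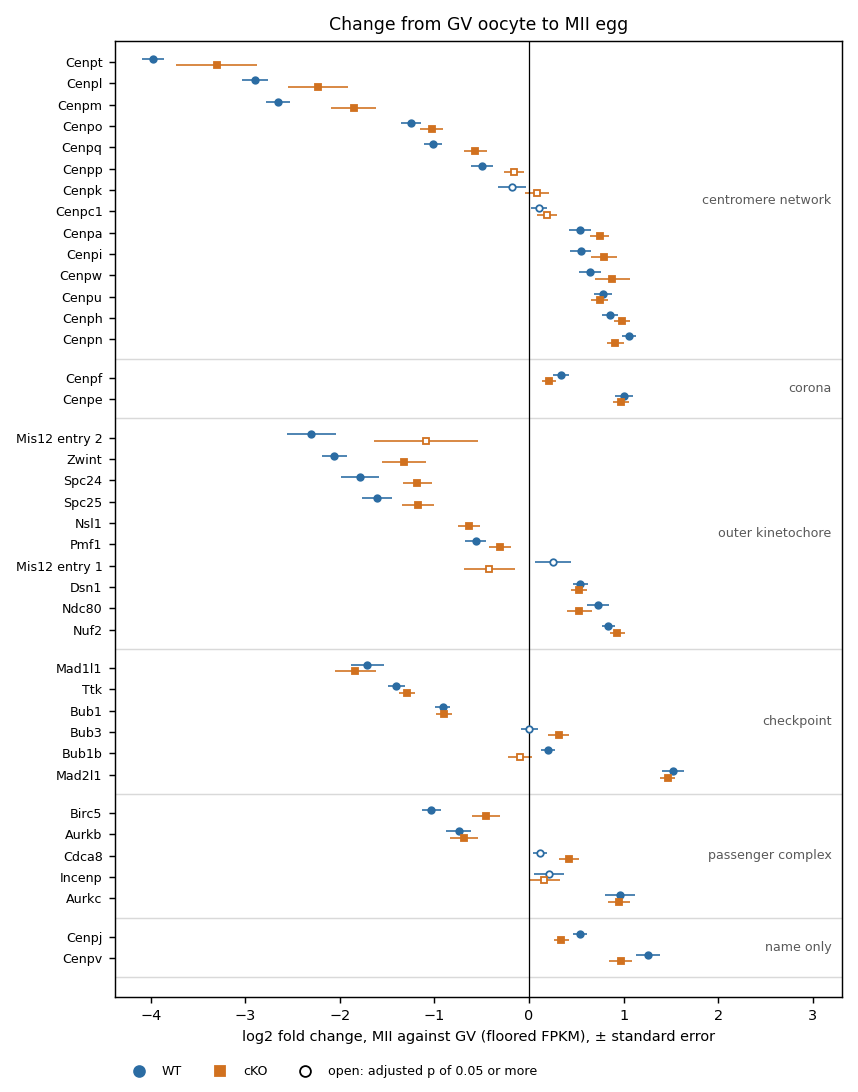
Log2 fold change of each entry from GV oocyte to MII egg in WT (circles) and cKO (squares), with its standard error, grouped by role and ordered by the WT change. Filled symbols passed the limma threshold, and in both genotypes changes ran from a fall of over 3 log2 units for Cenpt to a rise of about 1.5 for Mad2l1.

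The 14 tested entries of the centromere network divided into 6 that rose, 6 that fell and 2 that did not pass the test in WT (6, 5 and 3 in cKO). Cenpt, whose product binds DNA next to CENP-A nucleosomes and recruits the NDC80 complex, fell most. It was at 16.7, 15.6, 13.8 and 17.0 FPKM in the WT GV libraries and 0.326, 0.386, 0.253 and 0.244 in the WT eggs. In cKO it was at 17.1, 15.1, 21.3 and 14.0 FPKM in GV oocytes and 1.07, 0.600, 4.55 and 1.65 in eggs. All eggs lay far below all GV oocytes, and each cKO egg library lay above each WT egg library. The WT egg mean was 1.92% of the GV mean and the cKO egg mean 11.7%. The log2 change was −3.98 (SE 0.12, limma adjusted p = 7.04e-10) in WT and −3.31 (SE 0.43, adjusted p = 0.00011) in cKO. The floor of 1 FPKM lies above all 4 WT egg values and 1 of the 4 cKO egg values, so the WT change in particular is understated. It also makes the WT egg values equal, so the WT SE and p leave out their spread and are not comparable with those of cKO. Cenpw, which encodes the histone-fold partner of CENP-T, rose in both genotypes (log2 0.64 and 0.88).

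CENP-L and CENP-N also form a pair, and their transcripts parted in the same way. Cenpl was at 23.4, 24.9, 24.3 and 23.3 FPKM in WT GV oocytes and 2.85, 2.66, 3.92 and 3.61 in WT eggs, and at 29.0, 23.9, 22.3 and 22.9 FPKM in cKO GV oocytes and 3.41, 3.44, 9.57 and 6.55 in cKO eggs. Its log2 change was −2.90 (SE 0.13) in WT and −2.23 (SE 0.32) in cKO. Cenpn, which reads the CENP-A nucleosome, was at 206, 218, 244 and 215 FPKM in WT GV oocytes and 454, 455, 446 and 477 in WT eggs. In cKO the values were 220, 197, 215 and 198 FPKM in GV oocytes and 405, 421, 343 and 396 in eggs. Eggs were about 2-fold above GV oocytes with no overlap in either genotype (log2 1.06, SE 0.07, and 0.91, SE 0.09), and the level of Cenpn in eggs was the highest of the centromere network.

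The group of CENP-H, -I, -K and -M divided likewise. Cenpm was at 112, 87.0, 128 and 100 FPKM in WT GV oocytes and 15.1, 18.8, 18.4 and 15.4 in WT eggs (log2 −2.65, SE 0.13). In cKO it was at 123, 98.7, 93.2 and 114 FPKM in GV oocytes and 23.0, 22.7, 49.6 and 29.3 in eggs (log2 −1.85, SE 0.24). All cKO eggs were above all WT eggs, and the third cKO egg library was the highest. Cenph was at 172, 155, 182 and 153 FPKM in WT GV oocytes and 305, 306, 309 and 277 in WT eggs, and at 153, 152, 134 and 151 FPKM in cKO GV oocytes and 269, 318, 289 and 289 in cKO eggs. It rose by 0.86 (SE 0.08) and 0.98 (SE 0.08) on the log2 scale, and Cenpi rose by 0.55 and 0.79, while Cenpk did not pass the test in either genotype (−0.18 and 0.09). In the group of CENP-O, -P, -Q and -U, Cenpo and Cenpq fell in both genotypes and Cenpp in WT, whereas Cenpu rose in both (log2 0.78 and 0.75). Cenpa, the histone variant itself, rose from 43.3 ± 5.43 to 62.8 ± 7.45 FPKM in WT and from 40.3 ± 4.19 to 67.5 ± 4.52 in cKO. Cenpc1, whose product bridges the nucleosome and the MIS12 complex, did not pass the test (log2 0.11 and 0.19).

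In the outer kinetochore the 4 subunits of the NDC80 complex divided along its structure. Ndc80 and Nuf2, which encode the end that binds microtubules, rose in WT by 0.73 (SE 0.11) and 0.84 (SE 0.07) on the log2 scale, and in cKO by 0.53 and 0.94. Spc24 and Spc25, which encode the end that joins the inner kinetochore, changed by −1.79 (SE 0.20) and −1.61 (SE 0.16) in WT and by −1.18 and −1.17 in cKO. In FPKM, Spc24 went from 40.6 ± 4.63 to 12.1 ± 3.43 in WT, and Ndc80 from 25.9 ± 2.38 to 43.0 ± 5.64. These subunits were singled out after their values were seen. Dsn1, of the MIS12 complex, had the highest level of the outer kinetochore. It was at 280, 298, 295 and 261 FPKM in WT GV oocytes and 407, 380, 422 and 441 in WT eggs. The cKO values were 273, 261, 286 and 247 FPKM in GV oocytes and 360, 382, 366 and 429 in eggs, and eggs lay above GV oocytes in both genotypes (log2 0.54 and 0.53). Pmf1, another MIS12 complex subunit, fell by 0.56 and 0.31 on the log2 scale. Both transcripts for corona proteins rose, Cenpe, a kinesin that carries chromosomes towards the spindle equator, from 61.4, 67.0, 82.7 and 64.2 to 139, 136, 137 and 136 FPKM in WT and from 64.5, 63.4, 55.9 and 60.8 to 112, 119, 116 and 134 FPKM in cKO. Eggs were again above GV oocytes without overlap. Cenpf rose less (log2 0.34 and 0.21).

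**Figure D2:**
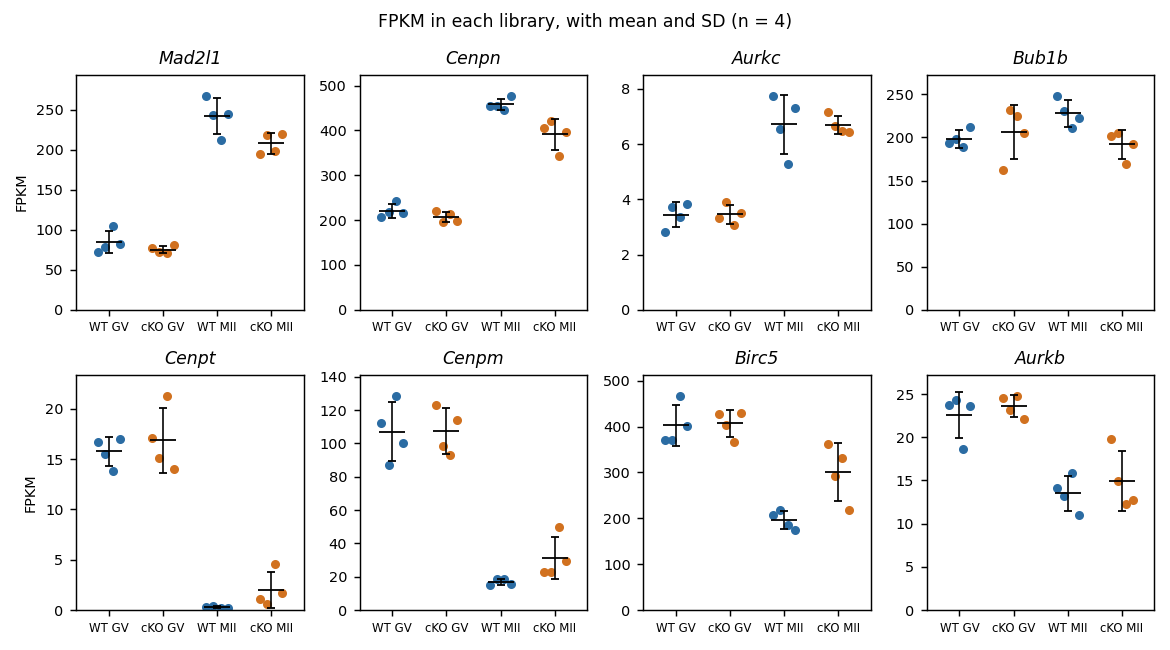
FPKM of 8 members in each library (points), with the mean and SD of each group (n = 4, axes start at 0). Mad2l1, Cenpn and Aurkc were higher in eggs, Cenpt, Cenpm, Birc5 and Aurkb were lower, and for Birc5 the cKO eggs lay between 218 and 361 FPKM and the WT eggs between 175 and 218.

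Among checkpoint transcripts, Mad2l1 rose most of all members, while Mad1l1, Ttk and Bub1 fell. Mad2l1 encodes MAD2, which is turned into the inhibitory conformation by MAD1 at the kinetochore. It was at 72.7, 78.6, 105 and 82.5 FPKM in WT GV oocytes and 267, 243, 213 and 244 in WT eggs (log2 1.52, SE 0.12, adjusted p = 5.42e-07), and at 76.8, 72.1, 70.9 and 81.3 FPKM in cKO GV oocytes and 195, 218, 199 and 219 in cKO eggs (log2 1.47, SE 0.08). Every egg library was about 2-fold or more above every GV library of its genotype. Mad1l1, which encodes MAD1, changed by −1.71 (SE 0.17) in WT and −1.84 (SE 0.22) in cKO. Ttk, the kinase MPS1 that starts checkpoint signaling, changed by −1.40 in WT and −1.29 in cKO, and Bub1 by −0.91 and −0.90 (log2, called in both). Bub1b, which encodes BUBR1 and had the highest mean level of the checkpoint group over all libraries, was at 194, 198, 189 and 212 FPKM in WT GV oocytes and 248, 230, 211 and 223 in WT eggs. In cKO it was at 162, 232, 225 and 205 FPKM in GV oocytes and 202, 206, 169 and 192 in eggs. The stages overlapped in both genotypes. The WT change was 0.20 (SE 0.08, adjusted p = 0.0312), and this call held under 9 of 17 alternative settings, while the cKO change was −0.09 (SE 0.12, adjusted p = 0.518). Bub3, the partner of both BUB kinases, did not pass the test in WT (log2 0.00) and rose in cKO by 0.31 (SE 0.11, adjusted p = 0.0312). The difference between the genotypes' changes was not past the threshold for either (interaction adjusted p = 0.307 for Bub1b and 0.265 for Bub3).

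In the passenger complex the transcripts of the alternative kinases moved towards each other. Aurkb was at 23.7, 24.3, 18.6 and 23.6 FPKM in WT GV oocytes and 14.1, 13.2, 15.8 and 11.0 in WT eggs, and at 24.5, 23.1, 24.7 and 22.1 FPKM in cKO GV oocytes and 19.8, 14.9, 12.3 and 12.7 in cKO eggs. Aurkc, the germ cell kinase, was at 2.83, 3.72, 3.35 and 3.84 FPKM in WT GV oocytes and 7.74, 6.53, 5.28 and 7.29 in WT eggs, and at 3.34, 3.91, 3.07 and 3.50 FPKM in cKO GV oocytes and 7.14, 6.65, 6.48 and 6.42 in cKO eggs. Aurkb was thus lower and Aurkc higher in every egg library than in any GV library of the same genotype, and Aurkb was above Aurkc in all libraries. Log2 changes were −0.74 (SE 0.13) and −0.69 (SE 0.15) for Aurkb and 0.96 (SE 0.16) and 0.95 (SE 0.12) for Aurkc. As a share of Aurkb plus Aurkc FPKM, which does not depend on library scaling, Aurkc was 13.3% ± 1.93 in WT GV oocytes and 33.3% ± 6.25 in WT eggs, and 12.8% ± 1.55 and 31.4% ± 3.61 in cKO (SD, n = 4). The shares rose by 20.1 and 18.6 percentage points without overlap. Each rise had p = 0.0286 in a two-sided exact permutation test, the smallest that 4 against 4 libraries allow, and 0.0571 after adjustment over the 4 comparisons made. Genotypes differed by −0.50 points in GV oocytes (exact p = 0.714) and −1.97 points in eggs (exact p = 0.6, adjusted 0.714), cKO minus WT, with overlapping libraries.

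Of the other passenger subunits, Birc5, which encodes survivin, fell by 1.03 (SE 0.10) on the log2 scale in WT and 0.46 (SE 0.15, adjusted p = 0.0202) in cKO. The cKO fall did not pass the threshold under 4 of 17 alternatives, which included rescaling by the median ratio of genes (log2 −0.21). Cdca8, which encodes borealin, was at 233, 249, 223 and 235 FPKM in WT GV oocytes and 250, 235, 264 and 267 in WT eggs, which overlap (log2 0.11, adjusted p = 0.18). In cKO it was at 178, 237, 228 and 203 FPKM in GV oocytes and 313, 272, 268 and 275 in eggs, all above the GV oocytes (log2 0.42, SE 0.11, adjusted p = 0.0052). Incenp, the scaffold, did not pass the test in either genotype. The remaining members, Cenpj and Cenpv, came in through the naming rule and were not assigned to a role group here, so the figures mark them as name only. Cenpj, a centriole protein gene, was at 23.2, 23.8, 23.0 and 23.1 FPKM in WT GV oocytes and 34.2, 36.4, 32.2 and 32.8 in WT eggs, and at 25.8, 24.8, 27.1 and 23.0 FPKM in cKO GV oocytes and 30.6, 33.5, 31.5 and 32.1 in cKO eggs. Cenpv was at 9.29, 7.05, 9.41 and 9.29 FPKM in WT GV oocytes and 21.5, 23.5, 18.5 and 20.0 in WT eggs, and at 11.3, 8.99, 8.54 and 10.6 FPKM in cKO GV oocytes and 18.0, 21.3, 17.8 and 19.6 in cKO eggs. For both genes every egg library was above every GV library of its genotype.

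Side by side, 15 entries rose and 14 fell in both genotypes and 4 passed the test in neither. Bub1b passed the test as a rise in WT only, and Cenpp and the second Mis12 entry as falls in WT only. Bub3 and Cdca8 passed it as rises in cKO only, and Nsl1 fell in cKO, where alone it was tested. Passing in 1 genotype only is not a difference between genotypes. As for Bub1b and Bub3, the interaction was not past the threshold for Cenpp, Mis12 entry 2 or Cdca8 (limma adjusted p = 0.249, 0.356 and 0.2). The 2 maturation comparisons have no library in common. In cKO, the calls of Pmf1, Cenpf and Bub3 held under 6, 8 and 11 of 17 alternatives. No maturation call was reversed under any alternative setting, and rescaling by the median ratio of genes shifted the median of all entries by 0.22 in WT and 0.25 in cKO (log2), in the direction of higher eggs. Strand of the libraries is not given in the sources used here, and exons of 9 members overlap those of another protein-coding gene in the annotation. The overlaps are largest for Cenpo, which shares 1380 bases with Adcy3, and Cenpu, which shares 1069 with Primpol, so reads of these genes may be mixed.

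The members that rose and those that fell were also compared in their annotated 3′ ends, because the cytoplasmic polyadenylation element (CPE), a U-rich motif in 3′ UTRs that is bound by CPEB proteins, is known for controlling poly(A) tails in maturing oocytes. All 39 names matched a protein-coding transcript in GENCODE M21 (GRCm38). TTTTAT or TTTTAAT was searched on the transcript strand in the last 100 bases of each 3′ UTR. A CPE was found in 7 of the 16 names that rose in WT (43.8%), in 1 of the 16 that fell (6.25%) and in 0 of the 6 that did not pass the test, with Mis12 counted in both of the latter by its 2 entries. Over all tested names with a matched transcript (84.7%, 85.4% and 79.5% of the names) the shares were 29.2%, 13.8% and 22.8%. The names that rose with a CPE were Aurkc, Bub1b, Cenpe, Cenph, Cenpn, Cenpu and Ndc80, and Aurkb was the exception among those that fell. In the whole 3′ UTR a CPE was found in 81.2% of the names that rose and 31.2% of those that fell. Over all tested names with a matched transcript these shares were 77.7% and 47.0%. Median UTR lengths of the members were 611.5 and 432 bases. The part of UTR length in these counts was not tested, and the UTRs of Cenpk and Cdca8 are shorter than the window. The annotated end may not be the end used in oocytes, and a match is a description of letters, not a bound site. The stretches below are written as DNA from 5′ to 3′. Each CPE and each whole AATAAA (the polyadenylation hexamer) in a stretch is in capitals. Shown are the members that rose with a CPE in the last 100 bases, and Aurkb, which fell with the same core as Bub1b. Members that rose without one in this window are not shown. Of these, Cenpa, Cenpi, Cenpw, Mad2l1, Dsn1 and Nuf2 have a CPE farther up the 3′ UTR, and Cenpf, Cenpj and Cenpv have none.
Bub1b (chr2:118641562-118641591, + strand): gtaTTTTATAATAAAatagtttttgttaca
Aurkc (chr7:7003045-7003074, + strand): ctcTTTTATgaagtgatgttaattaaaact
Cenpe (chr3:135273522-135273551, + strand): aaaTTTTAATctttccagatgggtataaca
Cenph (chr13:100759708-100759737, − strand): tacTTTTATaacttaaggAATAAAaagaat
Cenpn (chr8:116941438-116941467, + strand): atcTTTTATccatggcacactgaaactgag
Cenpu (chr8:46579978-46580007, + strand): ataagagataattaaacatTTTTAATctgt
Ndc80 (chr17:71496155-71496184, − strand): gtaTTTTATccccaaattatgataatatgg
Aurkb (chr11:69051625-69051654, + strand): acaTTTTATAATAAAgtcttaaatgtttca
For contrast, these are stretches around the hexamer in some members that fell and have no CPE in the last 100 bases. Ttk has a CPE farther up its 3′ UTR.
Birc5 (chr11:117855698-117855727, + strand): acggggtaacggAATAAAatcacttgaaaa
Cenpl (chr1:161086296-161086325, + strand): ccaatttagtcaAATAAActtacctaaaat
Spc25 (chr2:69193901-69193930, − strand): tctgcttgtgttAATAAActtgcttgttgt
Ttk (chr9:83872349-83872378, + strand): aagagctctgtaAATAAAgcgtcaccacag

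To ask whether loss of Psma7 changed these transcripts, cKO was then compared with WT at each stage. In GV oocytes, 0 of 39 entries were called higher and 0 lower by limma, beside 0.0994% and 0.0181% of all entries. At an unadjusted p under 0.05, 1 entry was higher and 1 lower, beside 7.62% and 3.06% of all entries. The median log2 difference was −0.04 for the members and 0.04 for all entries. The libraries of the genotypes did not overlap for 0 entries higher in cKO (4.25% of all entries) and 3 lower in cKO (2.42%), which were Bub1, Cenph and Cenpi. Cenpi had the smallest p, with 4.38, 4.07, 4.70 and 4.12 FPKM in WT and 3.68, 2.90, 2.96 and 2.56 in cKO GV oocytes (log2 −0.52, SE 0.15, adjusted p = 0.205). It passed the threshold only when all 16 libraries shared a single fit (adjusted p = 0.0388), and it was chosen here after its values were seen.

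In eggs, 1 of 38 entries was higher in cKO and 0 were lower, beside 6.53% and 1.49% of all entries. At an unadjusted p under 0.05 there were 7 higher (20.6% of all entries) and 6 lower (8.80% of all entries). The median log2 difference was 0.11 for the members and 0.07 for all entries. Libraries did not overlap for 6 entries higher in cKO (13.6% of all entries), Cenpc1, Cenpm, Cenpq, Cenpt, Cdca8 and Zwint, and for 5 lower in cKO (7.06%), Bub1b, Cenpe, Cenpf, Cenpi and Cenpn. Read against these backgrounds, the call count was below the share of all entries, the count of 6 higher was near it and the count of 5 lower was above it.

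**Figure D3:**
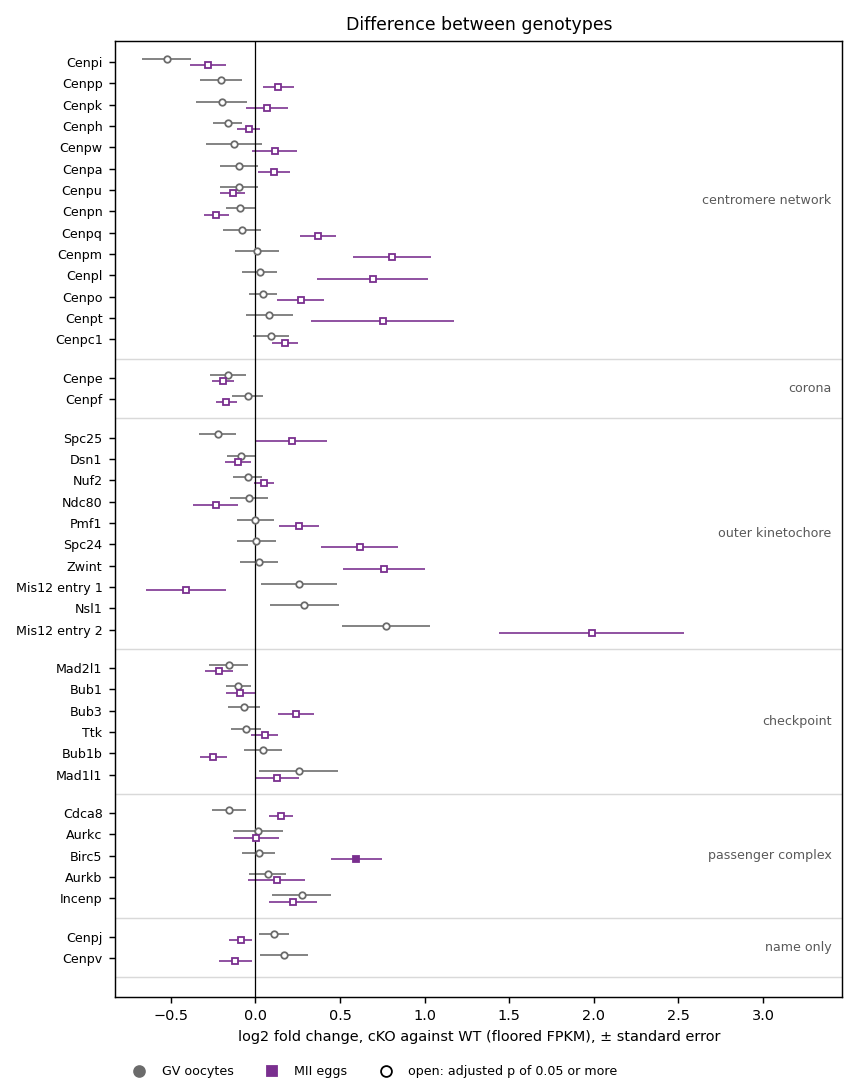
Log2 fold change of cKO against WT in GV oocytes (circles) and MII eggs (squares) for each entry, with its standard error. Only Birc5 in eggs is filled, as the single entry past the limma threshold, and the second Mis12 entry has the largest difference and the longest error bar.

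The called entry was Birc5. It was at 371, 371, 466 and 402 FPKM in WT GV oocytes and 427, 402, 367 and 430 in cKO GV oocytes, which overlap (log2 0.02, SE 0.10). The WT eggs were at 208, 218, 185 and 175 FPKM and the cKO eggs at 361, 293, 332 and 218. The first 3 cKO eggs were above every WT egg and the fourth was level with the highest WT egg. The cKO egg mean was 1.53-fold the WT mean (log2 0.60, SE 0.15, limma adjusted p = 0.0456). The call was lost without any single WT egg library, without cKO egg library 1, 2 or 3, without the intensity trend and with replicate number as a block (adjusted p from 0.00541 to 0.110 over 17 alternatives, log2 from 0.50 to 0.74). The interaction of genotype and stage was 0.58 (SE 0.19, adjusted p = 0.122).

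Other members with differences above 0.6 in eggs fell short of the threshold at the floor of 1 FPKM. Cenpm, with the egg values given above, differed by 0.81 (SE 0.23, adjusted p = 0.0607) and Cenpt by 0.75 (SE 0.42, adjusted p = 0.266). All WT egg values of Cenpt lie under the floor of 1 FPKM, and with a floor of 0.1 FPKM it was called at 2.32 (SE 0.56, adjusted p = 0.0415). Cenpl and Spc24 differed by 0.69 (SE 0.33, adjusted p = 0.197) and 0.62 (SE 0.23, adjusted p = 0.113), and for both the genotypes overlapped. Zwint, which links the KNL1 complex to the corona, was at 3.41, 3.27, 3.28 and 4.15 FPKM in WT eggs and 4.66, 4.24, 9.51 and 6.61 in cKO eggs (log2 0.76, SE 0.24, adjusted p = 0.0815). Its GV libraries were at 12.9, 13.4, 16.5 and 15.9 FPKM in WT and 15.9, 14.0, 14.7 and 14.7 in cKO. In eggs the lowest cKO library was just above the highest WT library, and in GV oocytes the genotypes overlapped. Cenpq differed less, by 0.37 (SE 0.10, adjusted p = 0.0589), with no overlap between the genotypes in eggs. It was called under some alternatives only, such as a filter at a mean of 5 FPKM (adjusted p = 0.0491). On the lower side, Bub1b differed by −0.25 (SE 0.08, adjusted p = 0.0838) and Cenpn by −0.23 (SE 0.07, adjusted p = 0.0795). Of the kinases of the passenger complex, Aurkb differed by 0.13 (SE 0.17) and Aurkc by 0.01 (SE 0.13). By the interaction test over all 16 libraries, 0 of 38 members passed the threshold in either direction (1.07% of all entries were called higher and 0.188% lower). At an unadjusted p under 0.05, 8 members were higher (21.1%) and 0 lower, beside 12.7% and 5.03% of all entries. A member short of the threshold may still have changed differently in cKO.

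Mis12 stands apart because its 2 entries moved differently, and both were singled out after their values were seen. The table does not say which transcript each entry is. Mis12 encodes the subunit for which the MIS12 complex is named (GRCm38, chr11:71019611-71027371, + strand). Entry 1 was at 12.0, 12.0, 10.6 and 17.6 FPKM in WT GV oocytes and 10.6, 17.8, 21.8 and 13.4 in cKO GV oocytes, and at 12.4, 14.4, 14.3 and 21.1 FPKM in WT eggs and 16.6, 10.2, 12.7 and 8.02 in cKO eggs. All groups overlapped, and it passed no test. Entry 2 was at 5.07, 9.03, 3.73 and 3.47 FPKM in WT GV oocytes and 7.61, 8.49, 9.49 and 8.24 in cKO GV oocytes. In eggs it was at 0.205, 0.198, 0.177 and 0.110 FPKM in WT and at 0.148, 6.34, 6.13 and 6.35 in cKO. In cKO egg libraries 2, 3 and 4 it was near the GV level, while cKO egg library 1 was within the WT range. The egg difference was 1.99 (SE 0.55, adjusted p = 0.0559). Without cKO egg library 1, which was singled out after its value was seen, it was 2.65. All WT egg values of entry 2 lie under the floor of 1 FPKM and entered these fits as equal. The fits therefore leave out the spread of the WT eggs. With values below 1 FPKM set to 1, entry 2 was the 1 member whose group means were more than 3-fold apart between genotypes. Both entries together were at 15.7 ± 3.76 FPKM in WT eggs and 16.6 ± 1.81 in cKO eggs, and at 18.4 ± 3.31 and 24.4 ± 5.70 in GV oocytes.

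**Figure D4:**
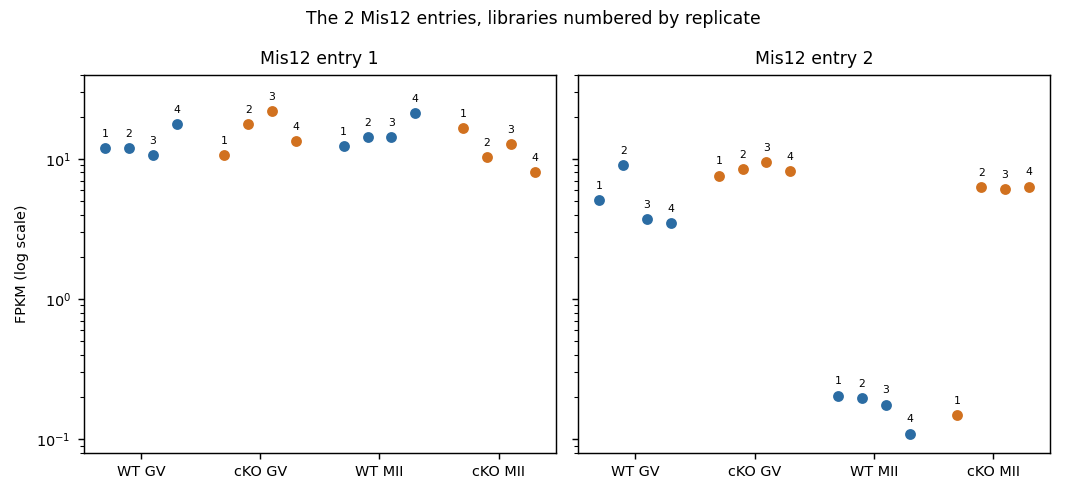
FPKM of both Mis12 entries in each library on a log scale, with libraries numbered by replicate within each group. For entry 2, cKO egg libraries 2, 3 and 4 lie at 6.13 to 6.35 FPKM, and cKO egg library 1 lies with the WT eggs at 0.148.

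The egg libraries of cKO also differed from each other over many members. The labels call them MII. The paper reports, however, that some ovulated cKO oocytes lacked a first polar body or stayed at the GV stage, and others were arrested at telophase I. Whether such cells were in these pools is not given, and their part in the differences was not tested. Of the 16 entries that fell in WT, 11 (68.8%) had their highest cKO egg value in library 3, as did 54.0% of all entries that fell, and 4 (25%) in library 1. The median level left in eggs, as a percent of the GV mean, was 34.1, 37.2, 34.6 and 42.5% in the WT egg libraries and 42.3, 45.5, 58.5 and 50.0% in the cKO egg libraries. For all entries that fell in WT these medians were 30.8 to 33.7% in WT eggs and 34.1 to 47.8% in cKO eggs, again highest in cKO library 3. The cKO egg mean was above the WT egg mean for 15 of the 16 (93.8%, beside 84.1% of all that fell), and below it for 13 of the 16 entries that rose (81.2%, beside 72.4%). These entries were chosen on the same WT eggs, which alone favors such a direction, so the counts are a description. Without cKO egg library 3, the egg differences of Cenpm, Zwint and Cenpl went from 0.81, 0.76 and 0.69 to 0.56, 0.53 and 0.40 on the log2 scale, and that of Cenpt could not be fitted because its mean fell under 1 FPKM.

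**Figure D5:**
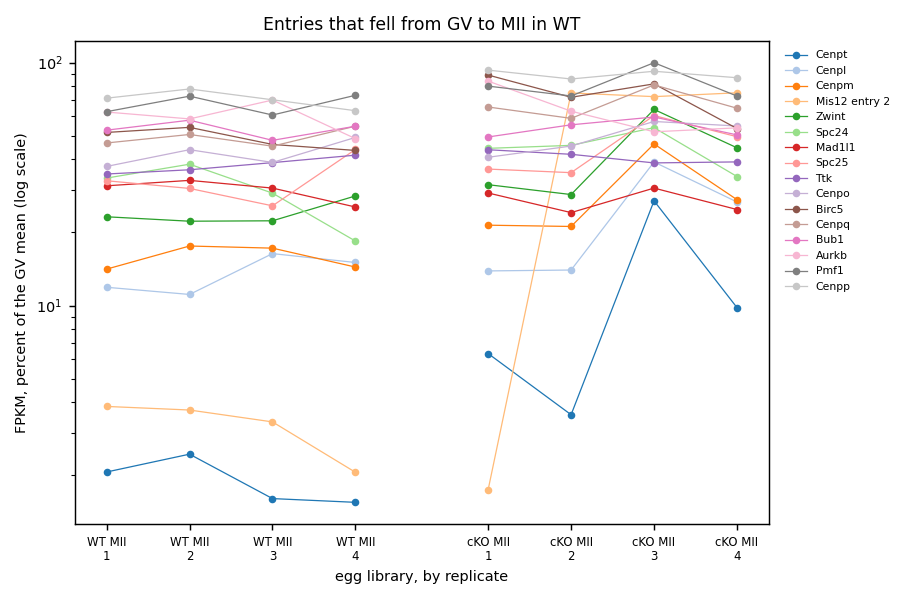
Level of the 16 entries that fell in WT, in each egg library as a percent of the GV mean of the same genotype (log scale), with lines joining an entry's values within a genotype. Cenpt and Cenpl reached their highest level in cKO egg library 3, and Mis12 entry 2 separates cKO egg library 1 from the other three.

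A further list of 26 genes of the same pathway outside the naming rule gave 28 tested entries. In WT 7 rose and 18 fell during maturation, beside 26.1% and 52.4% of all entries. In cKO 8 rose and 17 fell, beside 23% and 51%. In GV oocytes 0 were called higher and 0 lower in cKO by limma, beside 0.0994% and 0.0181% of all entries. At an unadjusted p under 0.05, 2 were higher and 2 lower, beside 7.62% and 3.06%. In eggs 2 were higher in cKO and 0 lower, beside 6.53% and 1.49% of all entries. At an unadjusted p under 0.05 there were 5 higher and 3 lower, beside 20.6% and 8.80%. Both counts of higher entries are near these shares. The 2 called entries were Ska1 and Ska3, whose products form, with SKA2, the complex that keeps NDC80 on shortening microtubules. Ska1 was at 71.0 ± 6.31 FPKM in WT and 74.4 ± 5.18 in cKO GV oocytes, and at 19.6 ± 1.26 FPKM in WT and 39.4 ± 9.74 in cKO eggs (log2 0.97, SE 0.17, adjusted p = 0.0221), and the interaction was 0.90 (adjusted p = 0.0357). Ska3 was at 22.3 ± 1.69 FPKM in WT and 32.9 ± 5.49 in cKO eggs (log2 0.55, SE 0.13, adjusted p = 0.0385). Both fell during WT maturation (log2 −1.85 for Ska1 and −2.06 for Ska3). The alternative settings, with each library left out, were evaluated for members of the naming rule only. The stability of the Ska1 and Ska3 calls was thus not tested. Apitd1 encodes CENP-S and Stra13 encodes CENP-X, the remaining histone-fold partners of CENP-T and CENP-W. Chosen after their values were seen, they fell in WT as Cenpt did, with log2 changes of −1.19 for Stra13 and of −1.68 and −6.43 for the 2 Apitd1 entries.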

How the data were processed

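The groups came from the labels, and columns were assigned to samples by their names. The study's methods describe Smart-seq2 cDNA, primed with oligo-dT. The authors deposited FPKM values, one for each entry and library, and the submitters' processing notes name TopHat2 2.1.1, Cufflinks 2.2.1 and the build mm10. The gene annotation and the strand setting are not given in the sources used here. The table holds no read counts and 0 ERCC spike-in entries, so sequencing depth was not estimated here and counting errors are not given. At low FPKM, values rest on few fragments, and values below 1 FPKM were set to 1 before the log2 transform, as in the study's methods. The labels call the libraries biological replicates, with no batch or date, and p-values measure the spread between these pools.

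Entries that averaged 1 FPKM or more in a comparison's libraries were fitted with limma 3.58.1 in R 4.3.3 (empirical Bayes with an intensity trend, Benjamini-Hochberg over all entries tested, two-sided, adjusted p under 0.05). Each comparison used its own 8 libraries, and the interaction all 16. WT eggs serve in both the genotype and the maturation comparison, as do the other groups. The fits were tested on simulated data of 28618 entries with independent noise for each entry. There, 194 to 198 of 200 well expressed entries changed 4-fold were recovered, with 7 to 13 false calls among the entries past the filter. Smaller changes, and shifts shared by a whole library, were not simulated. Other steps ran in Python 3.11.15, with scipy 1.17.1 for permutation tests, pandas 2.3.3 and numpy 2.4.6 for tables, and matplotlib 3.10.9 for plots. Positions and 3′ ends came from GENCODE M21, from the transcript with the longest coding sequence of each gene.

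Members and gene lists were chosen with earlier results of these data known. Values in every library are given for members called between genotypes, Aurkb, Aurkc, the highest member of each group, and the 3 largest rises and falls of each maturation comparison. Other genes with such values were chosen after their values were seen. The alternatives were other floors, filters and scalings, no trend, a replicate block, a shared fit, summed entries, fold rules and each library left out.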

Additional observations from a re-analysis of the deposited data

Results flagged for a closer look

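For the 18 members with values for each library and for the Aurkc share, each group of 4 libraries was checked for a library far from the rest, by Dixon's ratio of the gap to the range. Of 76 groups 7 had such a library, and chance gives about 1 in 20. In WT GV oocytes these were Aurkb in replicate 3 at 18.6 FPKM, the lowest of its group, and Cenpv in replicate 2 at 7.05 FPKM, also the lowest. Cenph was lowest in cKO GV replicate 3 at 134 FPKM and in WT MII replicate 4 at 277 FPKM. Zwint was highest in WT MII replicate 4 at 4.15 FPKM. In cKO MII replicate 1, Mis12 entry 2 was lowest at 0.148 FPKM and Cdca8 was highest at 313 FPKM. Each flagged library stayed in the values reported above, and the part of any technical difference between libraries was not tested.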

How the results depend on the processing

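The maturation calls were the most stable. Of the 32 calls in WT, 31 held in all alternatives that gave a value, and Bub1b was the exception. In cKO 28 of 32 held, and the exceptions were Pmf1, Cenpf, Bub3 and Birc5. With group means over 3-fold apart in place of the test, 0 members rose and 8 fell in WT, and 0 rose and 4 fell in cKO. In eggs, the count of members higher in cKO, 1 as reported, was 2 with a floor of 0.1 FPKM (Cenpt added), 5 with no filter, 2 with a mean of at least 5 FPKM, 0 without an intensity trend and 6 with all 16 libraries in a shared fit, and 0 to 3 without single libraries. The shared fit also gave 1 member lower in GV cKO oocytes (Cenpi) and 1 lower in cKO eggs (Cenpn). Without filter, over 50% of the residual variances were 0 and the fit is unreliable. The interaction count of 0 became 1 without cKO MII replicate 1 (Mis12 entry 2), 2 (Zwint) or 4 (Birc5), and had a range of 0 to 1 over all libraries left out. The count past 3-fold between genotypes, 1 as reported, was 2 with a floor of 0.1 FPKM and 2 with a 2-fold rule. Rescaling by the median ratio of genes gave 21 members higher and 16 lower in WT maturation and 20 and 12 in cKO. With a replicate block, 0 members were higher in cKO eggs, and the maturation counts were 15 higher and 16 lower in WT and 15 and 14 in cKO. Deviations of like-numbered libraries from their groups correlated at −0.496 to 0.285, so the numbers were not taken as pairs. The adjusted p of the Aurkc share could pass 0.05 only if 3 of the 4 comparisons reached the smallest exact p, so its failure to pass says nothing about stability.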

Other observations

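The egg pattern of Mis12 entry 2 was looked for in the whole table after its values were seen. With at least 3 FPKM in cKO egg libraries 2, 3 and 4 and under 1 FPKM in cKO egg library 1 and in every WT egg library, 7 entries were found, and 5 of them are genes of chromosome 11. These were 4930524B15Rik, Med11 entry 1, Nup88 entry 2, Mis12 entry 2 and Gsg2 entry 2, the last placed by its synonym in RefSeq. Gsg2 encodes haspin, the kinase whose mark on histone H3 recruits the passenger complex. Its entry 1 was at 8.23 ± 0.401 FPKM in WT eggs and lower, at 4.91 ± 3.26, in cKO eggs (mean ± SD, n = 4). Its entry 2 was at 4.80 FPKM in WT GV oocytes, 7.22 in cKO GV oocytes and 0.0453 in WT eggs (means), and at 0.0485, 7.03, 6.35 and 7.69 in the cKO egg libraries. Nup88 entry 2 was at 4.69, 7.26 and 0.204 FPKM in the same groups and at 0.156, 11.7, 9.85 and 11.8 in the cKO egg libraries. The remaining entries were Oog2 entry 2 and C87977 entry 2 on chromosome 4. No test was made of this pattern.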
